A study of Mus musculus with 3 samples.

Results

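The muscle miRNAs of this series are the rows of the hairpins miR-143, miR-145a, miR-145b, miR-1a, miR-133a and miR-133b, taken by name from a table of mature miRNAs in mouse colonic mucosa. They number 9 of the 471 rows in the table. Of these, 8 had a mean of at least 10 normalized reads over the libraries and entered the counts below, as did 415 rows in all. The remaining row, miR-1a-5p, stood at 12 in mimic, was listed at 0 in KO and stood at 8 in WT.

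Small RNA was sequenced in 3 libraries, 1 per group. The mimic library, labelled rescue, came from a global mir-10b-/- mouse that had received an injection of miR-10b-5p mimic. The KO library came from a global mir-10b-/- mouse labelled diabetic, and the WT library from a global mir-10b+/+ mouse labelled healthy. All are labelled colon mucosa, the mimic and KO mice share the mir-10b deletion, and the labels used here give no strain, age, sex or control injection. Genotype, animal and the label diabetic or healthy differ together between KO and WT. Injection, mimic, animal and the label rescue or diabetic differ together between mimic and KO. Between mimic and WT, genotype, injection, mimic, animal and the label rescue or healthy differ together. Within each comparison these cannot be told apart. Each group is 1 library, so replicate spread is unknown, no test was run, and each difference is one between libraries.

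Hairpins of miR-143 and miR-145a are made from a single primary transcript, and in the mouse gut they are known as miRNAs of smooth muscle and other mesenchymal cells rather than of epithelium. In smooth muscle they favour the contractile, differentiated state. miR-1 and miR-133 are likewise made from shared transcripts, are best known in heart and skeletal muscle, and are also present in smooth muscle. Each hairpin is cut into a 5p and a 3p arm, of which usually the more stable one accumulates.

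A miRNA finds its targets mainly through the seed, bases 2 to 8 of the mature strand. The RefSeq sequence tables (GRCm38.p6) matched 1 of the 9 rows, miR-133b-3p. Its sequence is shown with that of miR-206-3p, which neighbours it in the genome and carries the seed known for the miR-1 family, and with that of miR-10b-5p, the deleted and injected miRNA. Capitals mark the seed.
miR-133b-3p: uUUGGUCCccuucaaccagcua
miR-206-3p: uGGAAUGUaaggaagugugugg
miR-10b-5p: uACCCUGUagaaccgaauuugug

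The 3 seeds differ, so neither the miR-133b nor the miR-1 family shares its seed with miR-10b-5p. The mature strand of miR-133b-3p lies at chr1:20682834-20682855, that of miR-206-3p at chr1:20679055-20679076 and that of miR-10b-5p at chr2:74726074-74726096, all on the plus strand. miR-10b-5p stood at 469 normalized reads in mimic, 14 in KO and 18057 in WT, lowest in KO, with mimic between KO and WT.

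In GRCm38 coordinates, the hairpin gene Mir143 lies on chromosome 18 at 61649196 to 61649258 and Mir145a at 61647825 to 61647894, both on the minus strand and 1301 bases apart. Mir145b lies at 69022199 to 69022273 of the same chromosome. miR-1a has the copies Mir1a-1, on chromosome 2 at 180389048 to 180389124, and Mir1a-2, on chromosome 18 at 10785481 to 10785552. Mir133a-2 lies 9254 bases from Mir1a-1, at 180398379 to 180398482. Mir133a-1 lies at 10782909 to 10782976, and both it and Mir1a-2 overlap the noncoding host gene Mir133a-1hg on the same strand and the protein-coding gene Mib1 on the opposite strand. Mir133b, at 20682769 to 20682887 of chromosome 1, overlaps the noncoding gene Gm28653 on the same strand and lies 3686 bases from Mir206. The rows miR-1a-3p and miR-133a-5p can therefore hold reads from the copies of both chromosomes.

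The values are normalized reads as deposited, which sum to 8510085 in mimic, 8124898 in KO and 4872446 in WT. The depth in reads is unknown, so no counting interval is given. The 9 rows together held 26.4% of all normalized reads in mimic, 13.1% in KO and 11.8% in WT. With miR-192-5p, miR-21a-5p and miR-143-3p left out of the rows and the total, they held 12.2% in mimic, 2.26% in KO and 7.77% in WT, so that KO was then below WT. Of all normalized reads, miR-143 supplied 19.6% in mimic, 11.8% in KO and 6.07% in WT. For miR-145a the shares were 6.51% in mimic, 1.15% in KO and 5.60% in WT. The hairpins of miR-1a, miR-133a and miR-133b together made up 0.288% in mimic, 0.108% in KO and 0.107% in WT.

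The plot of levels by library shows these rows sorted by their mean. miR-143-3p was the most abundant of all rows in mimic, the 3rd in KO and the 5th in WT. miR-145a-5p was 5th in mimic, 18th in KO and 6th in WT. Epithelial miRNAs were abundant in every library: the list of miR-200 family, miR-192, miR-194, miR-215 and miR-375 rows held 29.7% of reads in mimic, 33.1% in KO and 33.6% in WT. The libraries therefore hold both epithelial and muscle-type miRNAs, and in such bulk tissue fewer cells of a type and less RNA per cell cannot be told apart.

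**Figure D1:**
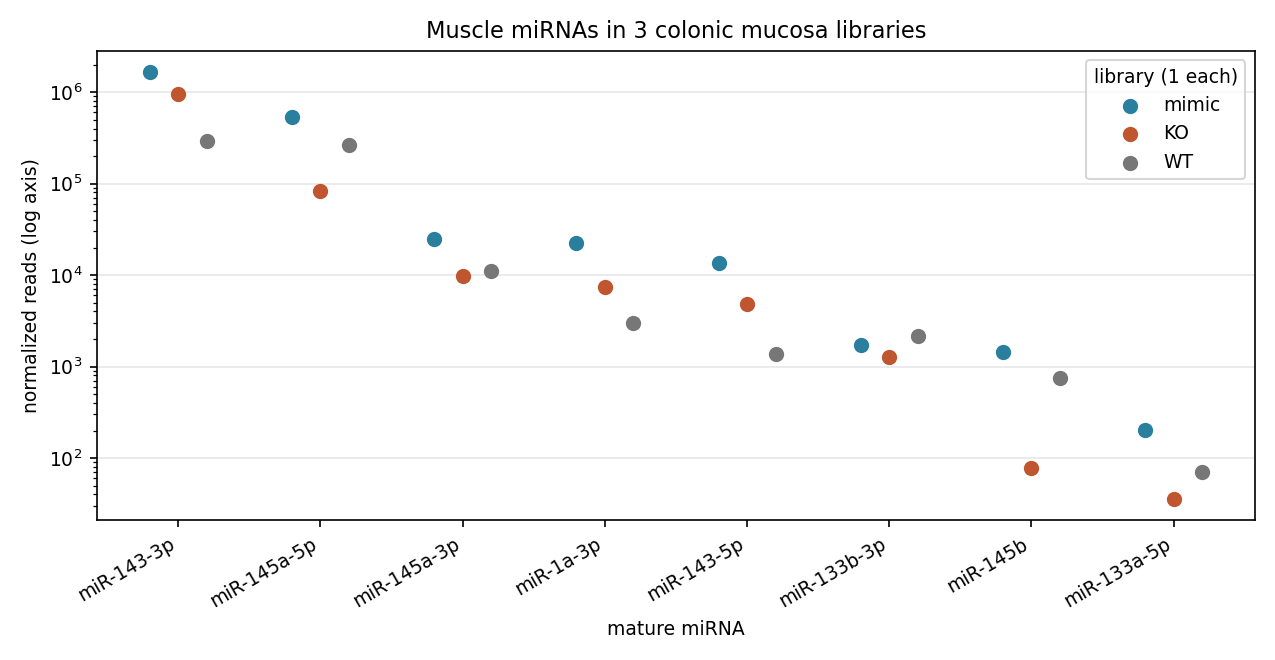
Normalized reads (log axis) of the 8 muscle miRNA rows with a mean of at least 10, in the mimic, KO and WT libraries, 1 point per library. Both arms of miR-143 and miR-1a-3p are highest in mimic and lowest in WT, whereas miR-145a-5p, miR-145b and miR-133a-5p are lowest in KO.

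Both arms of miR-143 had the same order of libraries. miR-143-3p, the main arm, stood at 1655929 normalized reads in mimic, 954512 in KO and 294225 in WT. miR-143-5p, the minor arm, stood at 13503 in mimic, 4827 in KO and 1387 in WT. The mimic library was highest and the WT library lowest for each arm. The ratio of KO to WT was 3.24 for the 3p arm and 3.48 for the 5p arm, and that of mimic to KO was 1.73 and 2.80 for the same arms.

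miR-145a had another order, although its hairpin neighbours that of miR-143. miR-145a-5p, the main arm, stood at 529831 normalized reads in mimic, 83319 in KO and 261621 in WT. Its KO value was the lowest, 3.14 times below that of WT, and the mimic value was 6.36 times that of KO and 2.03 times that of WT. miR-145a-3p, the minor arm, stood at 24569 in mimic, 9886 in KO and 11099 in WT. It too was lowest in KO, but KO reached 0.891 of WT for this arm.

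miR-145b, which comes from a separate gene and whose mature strand closely resembles miR-145a-5p, stood at 1443 normalized reads in mimic, 78 in KO and 759 in WT. It was 18.5 times higher in mimic than in KO, and its KO value was 9.73 times below that of WT. Reads of such near-identical strands can be split by the counting method, which no source used here names, so this row is not an independent measure of the gene Mir145b. miR-145b amounted to 0.272% of miR-145a-5p in mimic, 0.0936% in KO and 0.290% in WT.

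The miR-1 and miR-133 rows were far less abundant. miR-1a-3p, a miRNA of striated muscle that restrains proliferation in muscle precursors, stood at 22584 normalized reads in mimic, 7441 in KO and 2989 in WT. That is the order of libraries seen for miR-143. miR-133a-5p, the minor arm of miR-133a, stood at 205 in mimic, 36 in KO and 70 in WT, the order seen for miR-145a. miR-133b-3p, of the family known for roles in muscle differentiation, stood at 1726 in mimic, 1286 in KO and 2158 in WT. It spanned the narrowest range of the 8 rows and was the only one of them highest in WT. The rows found by name included none for the main arm of miR-133a.

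In KO against WT, the log2 ratio after adding 1 to each value was 1.80 for miR-143-5p, 1.70 for miR-143-3p and 1.32 for miR-1a-3p. It was -3.27 for miR-145b, -1.65 for miR-145a-5p, -0.94 for miR-133a-5p, -0.75 for miR-133b-3p and -0.17 for miR-145a-3p. At least 2-fold higher were 3 of 8 rows, beside 21.2% of the 415 rows, and at least 2-fold lower were 2 of 8, beside 9.64% of the 415. The median over the 8 rows was -0.46, and over all 415 rows it was 0.13. The split depended on scaling: with each library scaled to the same total, which adds -0.74 to each ratio, 1 row (miR-143-5p) was at least 2-fold higher and 4 were at least 2-fold lower, beside 7.23% and 34.0% of all rows. miR-143-3p was then at 0.96, miR-1a-3p at 0.58, miR-133b-3p at -1.48 and miR-133a-5p at -1.67. The direction of each of the 8 rows was the same under that scaling and under median-of-ratios factors.

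In mimic against KO, the 8 rows were all higher in mimic, while the median over all 415 rows was negative. In every comparison the 8 rows are not separate measures, since they include both arms of miR-143 and of miR-145a, and also miR-145b. The log2 ratio was 4.19 for miR-145b, 2.67 for miR-145a-5p, 2.48 for miR-133a-5p, 1.60 for miR-1a-3p, 1.48 for miR-143-5p, 1.31 for miR-145a-3p, 0.79 for miR-143-3p and 0.42 for miR-133b-3p. At least 2-fold higher were 6 of 8 rows, beside 13.3% of the 415 rows, and 0 of 8 were at least 2-fold lower, beside 28.2% of the 415. The median was 1.54 over the 8 rows and -0.31 over all rows. Median-of-ratios factors, which add 0.29 to each ratio, brought miR-143-3p to 1.08 and the count to 7 of 8, beside 18.6% of all rows. This comparison and the one of KO against WT share the KO library, so a low KO value enters both with opposite signs.

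In mimic against WT, 7 of the 8 rows were higher in mimic, while the median over all 415 rows was negative. The log2 ratio was 3.28 for miR-143-5p, 2.92 for miR-1a-3p, 2.49 for miR-143-3p, 1.54 for miR-133a-5p, 1.15 for miR-145a-3p, 1.02 for miR-145a-5p, 0.93 for miR-145b and -0.32 for miR-133b-3p. At least 2-fold higher were 6 of 8 rows, beside 19.8% of the 415 rows, and 0 of 8 were at least 2-fold lower, beside 25.8% of the 415. The median was 1.34 over the 8 rows and -0.14 over all rows. With equal totals, which add -0.80 to each ratio, 3 rows were at least 2-fold higher (both arms of miR-143 and miR-1a-3p), beside 7.23% of all rows, and 1 was at least 2-fold lower (miR-133b-3p, at -1.13), beside 46.7%. miR-145a-5p was then at 0.21 and miR-145b at 0.12.

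**Figure D2:**
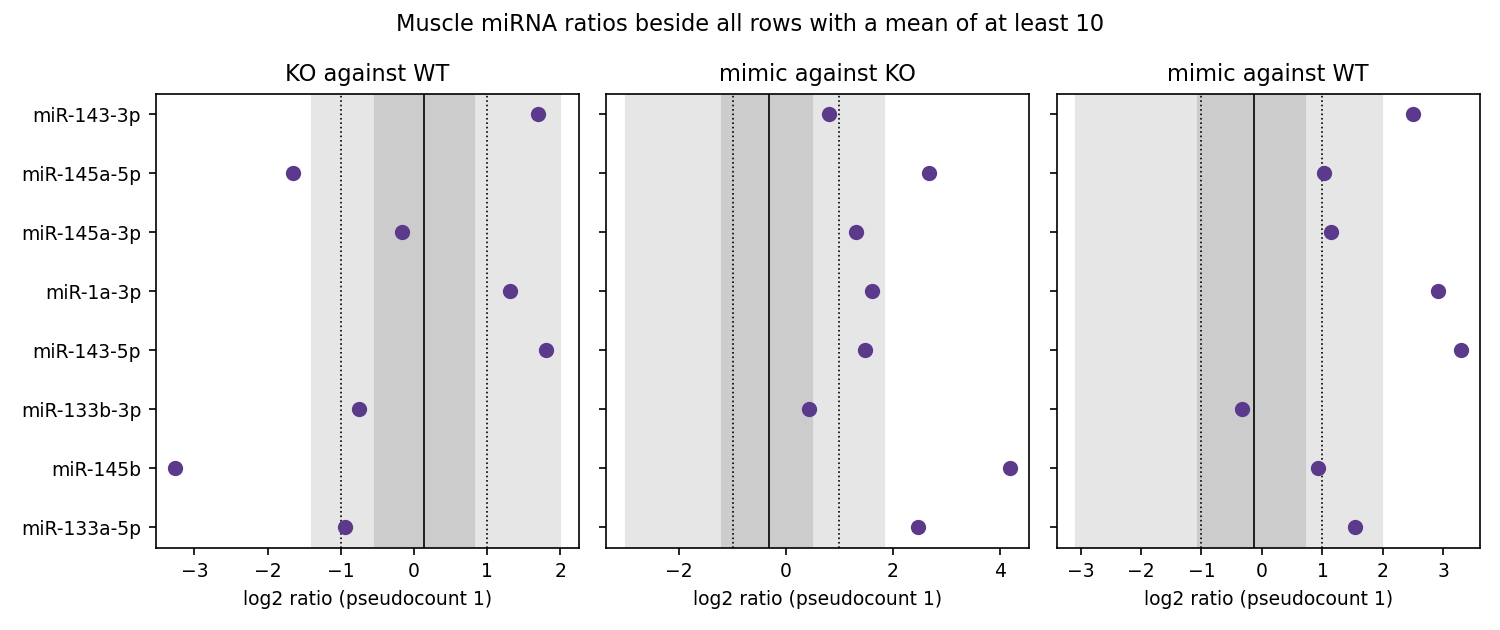
Log2 ratios (pseudocount 1) of the 8 muscle miRNA rows in 3 panels, KO against WT at the left, mimic against KO in the middle and mimic against WT at the right. The dark and light grey bands hold the central 50% and 90% of all 415 rows, the solid line is their median and the dotted lines mark 2-fold. At the left, miR-145a-5p and miR-145b lie below the light band. In the middle, miR-145b, miR-145a-5p and miR-133a-5p lie above it, and at the right, both arms of miR-143 and miR-1a-3p do.

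A ratio of a pair of rows within 1 library does not depend on how the libraries are scaled to each other by 1 factor each. Whether the deposited values were normalized by such factors is unknown. miR-143-3p was 3.13 times miR-145a-5p in mimic, 11.5 times in KO and 1.12 times in WT, so that the main arms of the neighbouring hairpins were nearly equal in WT and not in the other libraries. The log2 ratio of the pair was 3.35 higher in KO than in WT. Mimic stood 1.87 below KO and 1.47 above WT. Between the minor arms, miR-143-5p was 0.550 times miR-145a-3p in mimic, 0.488 times in KO and 0.125 times in WT. On the log2 scale that ratio was 1.97 higher in KO than in WT, less than for the main arms, and 2.14 higher in mimic than in WT, more than for the main arms.

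Other neighbours also differed between libraries. Of hairpins whose main row averaged 100 or more normalized reads, 128 pairs lay within 10 kb of each other on the same strand, many of them sharing a hairpin. A large part of these pairs came from a single locus, the Dlk1-Dio3 cluster, which holds miR-329, miR-379, miR-494 and miR-495 among others. In 42.2% of the 128 pairs, the ratio of the main rows changed at least 2-fold, in either direction, in KO against WT. The share was 39.1% between mimic and KO, and 46.1% between mimic and WT. By size of the change, miR-143-3p with miR-145a-5p ranked 3rd of 128 in KO against WT. It ranked 16th between mimic and KO, and 41st between mimic and WT. miR-1a-3p with miR-133a-5p ranked 12th, 57th and 46th in the same comparisons. For that pair the log2 ratio was 2.26 higher in KO than in WT. It sets a main arm beside a minor one, since miR-133a-5p is the row measured. Apart from miR-143-3p with miR-145a-5p, the pairs ranked 1st to 11th in KO against WT all came from the Dlk1-Dio3 cluster.

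Within miR-145a the arms did not keep their proportion. miR-145a-5p was 21.6 times miR-145a-3p in mimic, 8.43 times in KO and 23.6 times in WT, a log2 change of -1.48 in KO against WT. It was 1.36 between mimic and KO, and -0.13 between mimic and WT. For miR-143 the 3p arm was 123 times the 5p arm in mimic, 198 times in KO and 212 times in WT, with changes of -0.10, -0.69 and -0.79 in the same comparisons. Shifts of this size were common: of 89 hairpins with both arms at a mean of at least 100, 47.2% shifted at least 2-fold in KO against WT, and 39.3% did so both between mimic and KO and between mimic and WT. miR-145a ranked 26th of 89 by size in KO against WT and 28th in mimic against KO, and miR-143 ranked 82nd and 45th in those comparisons.

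**Figure D3:**
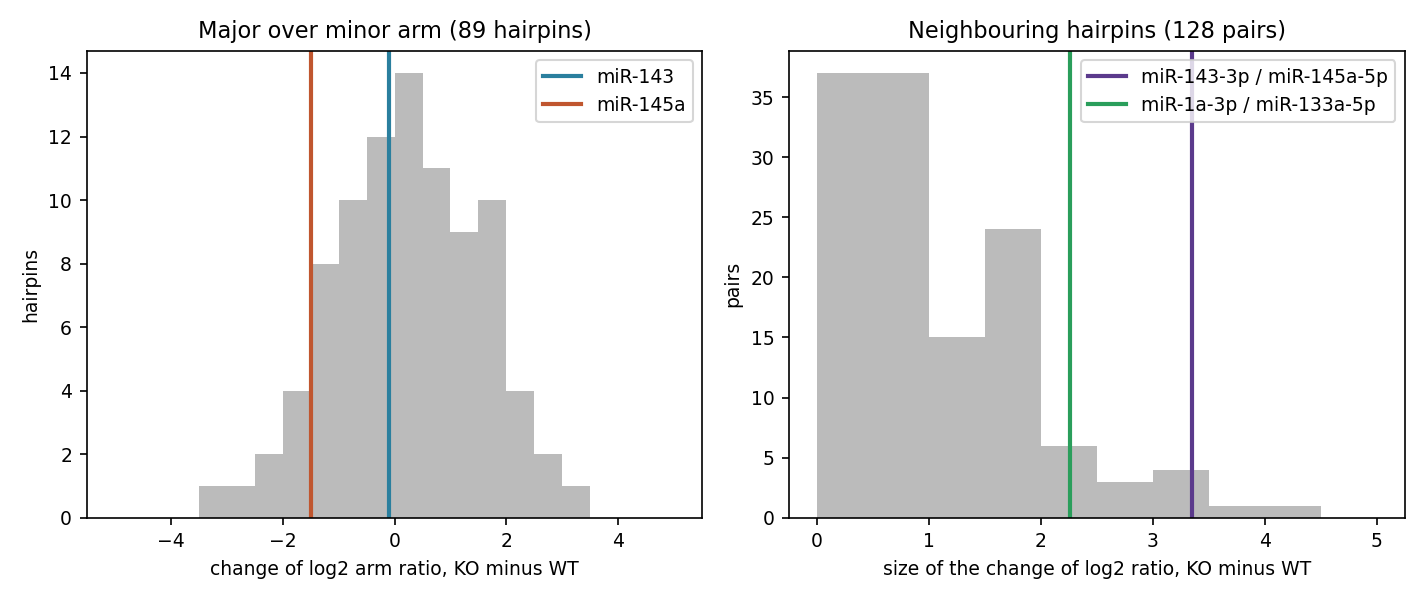
Left, number of hairpins by the change of the log2 ratio of the more to the less abundant arm, KO minus WT, for 89 hairpins, with lines at miR-143 and miR-145a. Right, number of pairs by the size of the change of the log2 ratio between neighbouring hairpins for 128 pairs, with lines at miR-143-3p over miR-145a-5p (3.35) and miR-1a-3p over miR-133a-5p (2.26), which lie in the sparse right part of the distribution.

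miR-1a-3p was 13.1 times miR-133b-3p in mimic, 5.79 times in KO and 1.39 times in WT. miR-143-3p was 73.3 times miR-1a-3p in mimic, 128 times in KO and 98.4 times in WT, a narrower span than that of miR-145a-5p, which was 23.5 times miR-1a-3p in mimic, 11.2 times in KO and 87.5 times in WT. On this measure miR-1a-3p followed miR-143-3p more closely than miR-145a-5p.

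Set against miR-192-5p, an abundant miRNA of gut epithelium, miR-145a-5p was 0.395 times its level in mimic, 0.0770 times in KO and 0.399 times in WT. miR-143-3p was 1.23 times miR-192-5p in mimic, 0.882 times in KO and 0.449 times in WT. Against miR-126a-3p, an endothelial miRNA, miR-145a-5p was 6.43 times as high in mimic, 1.57 times in KO and 6.77 times in WT. miR-143-3p was 20.1 times miR-126a-3p in mimic, 18.0 times in KO and 7.62 times in WT. With either partner, mimic and WT were close for miR-145a-5p and KO stood apart, whereas for miR-143-3p WT stood lowest.

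**Figure D4:**
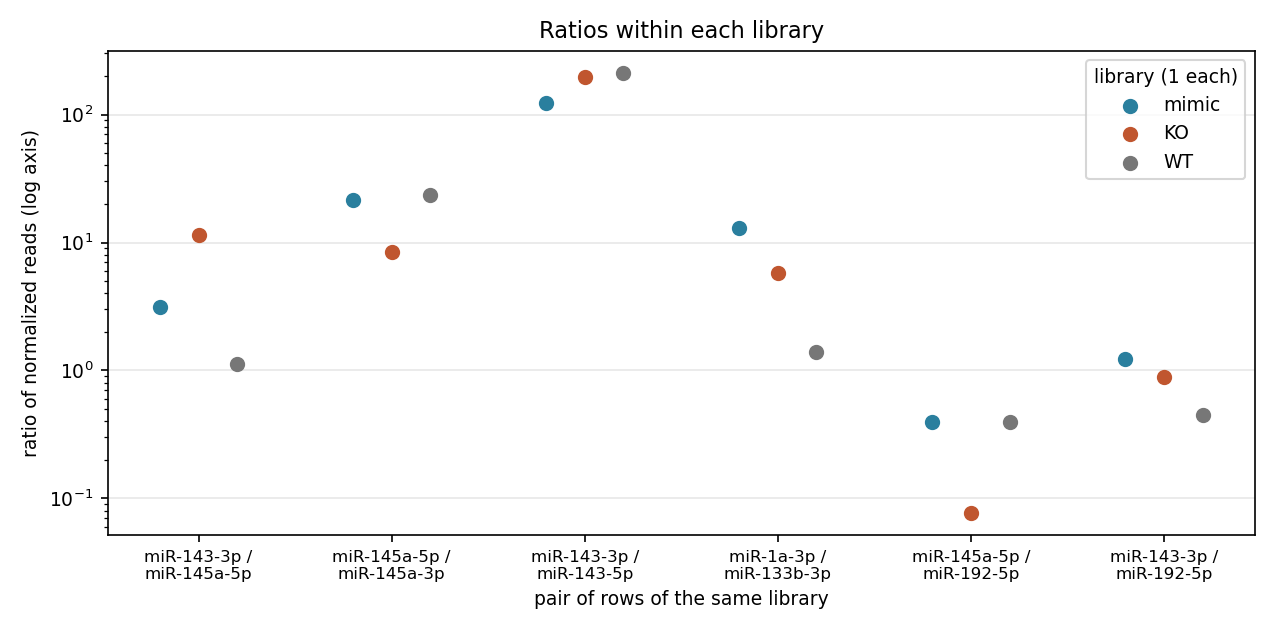
Ratios of normalized reads (log axis) between pairs of rows of the same library, in mimic, KO and WT, 1 point per library. miR-145a-5p is lowest in KO against its own 3p arm and against miR-192-5p, while miR-143-3p over miR-192-5p and miR-1a-3p over miR-133b-3p are lowest in WT.

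Rows of other muscle-linked miRNAs, among them the miR-23b, miR-27b and miR-24 group, miR-22 and miR-490, numbered 16 with a mean of at least 10. Of these, 2 were at least 2-fold higher and 1 lower in KO than in WT, 4 were higher and 2 lower in mimic than in KO, and 4 were higher and 1 lower in mimic than in WT. Their medians were -0.05, 0.68 and 0.15 in those comparisons. Low rows of striated muscle miRNAs in this list included miR-499-5p, at 34 in mimic, 15 in KO and 7 in WT. They also included miR-206-3p, under the mean of 10 and so not among the 16, listed at 0 in mimic and KO and at 7 in WT. Of 19 rows linked to the growth state of smooth muscle, such as miR-21a, miR-221 and miR-29a, 6 were higher and 3 lower in KO than in WT, 6 were higher and 2 lower in mimic than in KO, and 5 were higher and 1 lower in mimic than in WT. Their medians were 0.02, 0.06 and 0.60. Beside the counts of both lists, 21.2% of all 415 rows were at least 2-fold higher and 9.64% lower in KO than in WT. The shares were 13.3% higher and 28.2% lower in mimic against KO, and 19.8% higher and 25.8% lower in mimic against WT.

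Markers of other cells gave the following values beside these ratios. Fibroblast and mesenchyme rows (9) held 1.13% of reads in mimic, 1.78% in KO and 2.36% in WT. Their median log2 ratio was 0.08 between KO and WT, -0.84 between mimic and KO, and -0.61 between mimic and WT. The endothelial rows (2) held 1.44% in mimic, 0.959% in KO and 1.23% in WT, with medians of 0.34, 0.66 and 1.01 in those comparisons. Epithelial rows (16 with a mean of at least 10) had medians of 0.51, -0.06 and -0.17. The summed muscle rows came to 89.1 reads per 100 epithelial reads in mimic, 39.5 in KO and 35.04 in WT, and no list stood at 0 in any library. White blood cell rows (6) held 0.623% in mimic, 0.277% in KO and 0.845% in WT. Their medians were -0.45, -0.59 and -0.17 in the same comparisons. Their share was higher in mimic than in KO with miR-142a-5p (47347 normalized reads in mimic, 14200 in KO), although the median was negative. Red blood cell rows (3) held 0.0347% in mimic, 0.0195% in KO and 0.0402% in WT. Their medians were 1.00, 0.45 and 1.16, so the KO share was below that of WT although the median was positive. Rows of neurons and enteric nerve (7) held 0.0277%, 0.0347% and 0.0528% in the same order of libraries, with medians of -0.19, 0.37 and -0.02. The part of tissue composition in the muscle miRNA differences was not tested.

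The muscle rows themselves were left out of a search for the rows most like a member, which covered the other 294 rows averaging 100 or more over the 3 libraries. Likeness was measured by the Euclidean distance in the pair of log2 ratios KO against WT and mimic against KO. For miR-143-3p the 5 closest of these other rows were miR-221-5p (distance 0.37), miR-30d-3p, miR-338-3p, miR-340-3p and miR-7b-5p (0.46). For miR-1a-3p they were miR-340-3p (0.45), miR-488-3p, miR-27a-5p, miR-30d-3p and miR-147-5p (0.79). For miR-145a-5p they lay farther off and were miR-98-3p (0.68), miR-26a-3p, miR-181b-1-3p, miR-142a-5p and miR-708-3p (1.37). Of the rows searched, the same 5 in the same order were closest to miR-145b, at 2.29 to 3.46, so the distances for miR-145b exceeded those for the other members searched. With 3 libraries, likeness of this kind is easily met and describes these libraries only.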

How the data were processed

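Small RNA libraries from mouse colonic mucosa were sequenced in 3 samples, 1 per group. The deposited values are a score: per the file headers they are normalized miRNA reads, which the authors gave as whole numbers. The table also holds 2 columns of another unit, differences in normalized reads (KO minus WT, mimic minus KO) that the authors deposited; they equalled the subtraction with 0 exceptions and were not used further. How reads were aligned, counted and normalized is not given in the sources used here. Build mm10 is named in the submitters' processing notes. Since the method of normalization decides how libraries compare, ratios within a library are given too. Such ratios are free of the normalization only if it applied 1 factor per library, which is not known.

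Values were used as deposited, with Python 3.11.15 and pandas 2.3.3. Rows with a mean under 10 were removed (56 of 471). Ratios are log2 after adding a pseudocount of 1, with a limit of 2-fold. Arms, neighbours and closest rows needed a mean of at least 100. Loci came from GENCODE M21 (GRCm38), in which 200 of 211 hairpins at that level had a locus. Named rows are all members, the 5 closest other rows for 4 of them, and miR-10b-5p. The rows set beside members in ratios (miR-192-5p, miR-126a-3p) and the rows in the closing observations were chosen after their values were seen. The members and the 8 lists beside them were chosen with earlier results of these data known. With 1 library per group, no test was run; the counting was tested on simulated data.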

Additional observations from a re-analysis of the deposited data

How the results depend on the processing

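No paired analysis was possible because each group has 1 library, and for the same reason no replicate could be left out. A median or log2 ratio was taken to have moved where it shifted by more than 1.5-fold, and a count or share where it differed by more than 1.5 times. In KO against WT, with equal totals the counts of 3 higher and 2 lower rows became 1 and 4, with a median of -1.19; with equal totals computed without the muscle rows they were again 1 and 4, with a median of -1.17. The lower count was 1 without miR-145b and 4 with a 1.5-fold limit. No share over all rows was computed for that limit or for totals without the muscle rows, so those counts cannot be set beside all rows. In mimic against WT, equal totals gave 3 higher rows, 1 lower row and a median of 0.54, and without the muscle rows in the totals 3 were higher. No count or median of mimic against KO moved by this measure. With miR-192-5p, miR-21a-5p and miR-143-3p left out of rows and total, the muscle rows held 12.2% in mimic, 2.26% in KO and 7.77% in WT, since the sum then rests mainly on miR-145a-5p. The changes of the within-library ratios of miR-143 and miR-145a did not move with a pseudocount of 0.1 or 10. No single ratio of the 8 rows changed sign under the 3 other scalings or the 2 other pseudocounts. Counting rows with the same 3 values once, an alternative chosen after seeing the data, changed no count or median of the 8 rows. Depth is unknown, so low rows such as miR-133a-5p and the KO value of miR-145b have no counting error attached.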

Other observations

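miR-490, which lies in the gene of a muscarinic receptor of smooth muscle (Chrm2), showed its lowest values in KO for both arms. miR-490-3p stood at 402 normalized reads in mimic, 217 in KO and 295 in WT, and miR-490-5p stood at 64 in mimic, was listed at 0 in KO and stood at 61 in WT. Orders varied among the other muscle-linked rows: miR-23b-3p was also lowest in KO, miR-139-5p was lowest in mimic and miR-499-5p in WT. In KO against WT, 13 of the 16 rows of that list were within 2-fold. The share of all rows lowest in KO was not computed. miR-142a, a miRNA of white blood cells, had its lowest arm ratio in KO, as miR-145a did, although its highest was in mimic and that of miR-145a in WT. miR-142a-5p was 26.2 times miR-142a-3p in mimic, 5.16 times in KO and 20.0 times in WT. An arm ratio lowest in KO was not particular to these hairpins, as miR-574, miR-872 and miR-382 among others had it too. Of 89 hairpins, 47.2% shifted at least 2-fold in KO against WT.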
